A study of Mus musculus with 8 samples.

Results

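The immediate early genes Fos, Fosb, Jun, Junb, Jund, Egr1, Ier2, Atf3, Zfp36 and Dusp1 were read by their deposited gene names from a table of read counts, and all 10 were found among its 55421 genes. The counts came from bulk RNA sequencing of mouse small intestine of wild-type genotype. Both groups had been kept in 7% oxygen for 7 days. The Hypoxia group (4 samples) had no other labelled treatment and the Hypoxia+Nitrate group (4 samples) had also been given 4 mM nitrate. Hypoxia was common to both groups, so the comparison concerns nitrate and not low oxygen. The labels name no separate animals behind the samples, so a p-value here measures how far these samples spread, which may be technical.

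Immediate early genes are transcribed within minutes of a stimulus because their transcription needs no new protein synthesis. Growth factors, injury, mechanical stress and tissue handling act on them through MAP kinases and the promoter-bound factors SRF, ELK and CREB. Fos and Jun proteins pair through leucine zippers into AP-1 dimers, while EGR1, IER2 and ATF3 are further nuclear regulators of the early response. DUSP1, a phosphatase that switches MAP kinases off, and ZFP36 (tristetraprolin), which triggers decay of AU-rich messages, end the response. In the intestine these genes are known from crypt proliferation, wound repair and the reaction to tissue removal.

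The libraries of the groups differed in content, and this bears on every value here. Total counts ran from 5345377 to 21835865 in Hypoxia and from 8662279 to 63943036 in Hypoxia+Nitrate. Gene models that overlap ribosomal DNA repeats took 7.06% to 75.7% of counts in Hypoxia and 2.33% to 22.0% in Hypoxia+Nitrate, and mitochondrial coding genes 0.423% to 1.06% against 6.90% to 64.0%. A background was estimated from 1470 odorant, vomeronasal and trace-amine receptor genes, taken to be silent in gut. It was their pooled counts per kb of exonic sequence free of other genes, as if spread evenly. Single receptor genes stood at 0.329 to 2.17 times this density in Hypoxia (5th to 95th percentile, median 1.00). In Hypoxia+Nitrate they stood at 0 to 3.77 times (median 0.285), less evenly, so values above background are less certain there. The background so estimated made up 39.1% to 63.7% of what nuclear protein-coding genes received in Hypoxia and 2.74% to 23.2% in Hypoxia+Nitrate. Background and group therefore run together and cannot be told apart by a fit that holds both.

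Transcript levels of 9 of the 10 genes were higher in Hypoxia+Nitrate than in Hypoxia, and Fosb was the exception. The increases ran from 3.81-fold for Egr1 to 18.3-fold for Jund. All 10 genes passed the filter on low counts, and these 9 passed an adjusted p of 0.05 in edgeR's quasi-likelihood test of all 35431 genes, where 11.7% of genes were called higher. The same call was made for 18.5% of the 20128 nuclear protein-coding genes tested. For 8 of the 10 genes every Hypoxia+Nitrate value lay above every Hypoxia value. This was so for 12% of all genes tested and for 3618 of the 20128 nuclear protein-coding genes. The median log2 fold change of the 10 genes was 3.27, against −0.58 over all genes and 0.04 over nuclear protein-coding genes. Without Hypoxia+Nitrate 1 and 4 together this median was 1.97, against −0.59 over all genes. The 9 increases were all smaller there, from 0.66 for Atf3 to 2.43 for Jund on the log2 scale, and 6 genes were called higher. Lower calls numbered 0 of 10 in edgeR, against 12.7% of all genes, and 0 in DESeq2 and limma-voom, also at an unadjusted p under 0.05. For 0 of the 10 genes did every Hypoxia+Nitrate value lie below every Hypoxia value. This was so for 28.8% of all genes and for 4721 of the 20128 nuclear protein-coding genes. The number called higher was 1 without Hypoxia 1 and 5 without Hypoxia 4. It was 6 without Hypoxia 2, Hypoxia 3 or Hypoxia+Nitrate 1, 1 with scaling by library size alone, and 1 once the expected background was subtracted.

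**Figure D1:**
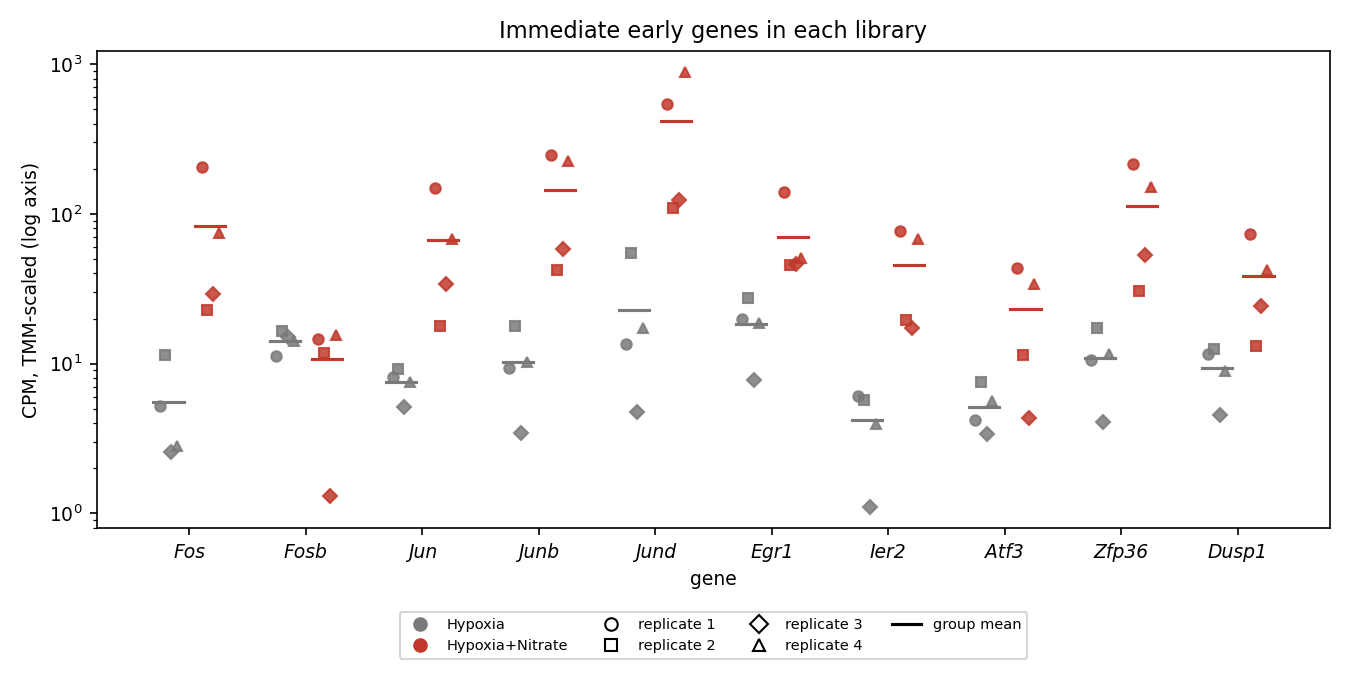
CPM of the 10 genes in each library on a log axis, with Hypoxia in grey and Hypoxia+Nitrate in red, a marker shape for each replicate number and a line at each group mean. The groups overlap for Fosb and Atf3 and are apart for the other 8 genes, and Hypoxia+Nitrate 1 and 4 hold the highest values of all 10 except Fosb.

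Fos, the founding AP-1 subunit (ENSMUSG00000021250, GRCm38, chromosome 12, 85473890 to 85477273, plus strand), was counted 78, 158, 49 and 47 times in the libraries Hypoxia 1 to 4. The libraries Hypoxia+Nitrate 1 to 4 gave 2900, 401, 539 and 1518 counts. Scaled by TMM, these were 5.21, 11.5, 2.58 and 2.83 CPM (counts relative to the scaled library size) in Hypoxia 1 to 4. In Hypoxia+Nitrate 1 to 4 Fos stood at 206, 22.8, 29.3 and 74.1 CPM. Every Hypoxia+Nitrate library was above every Hypoxia library, and Hypoxia+Nitrate 1 stood far above the rest of its group. The group means were 5.53 ± 4.15 and 83.1 ± 85.1 CPM (SD, n = 4 each), a log2 fold change of 3.91 (SE 0.848, edgeR adjusted p = 0.0110).

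In Hypoxia, Fos transcripts were close to what the background alone would give. The counts expected from background were 42.6, 28.2, 48.7 and 40.2 in Hypoxia 1 to 4, so that Hypoxia 3 and 4 stood at 1.01 and 1.17 times background and Hypoxia 2 at 5.59 times. Over the Hypoxia group Fos was at 2.08 times background, and the receptor genes themselves ranged from 0.329 to 2.17 times (5th to 95th percentile). Fos was not detectable above background in Hypoxia 3 at this depth, so its fold change starts from a level set largely by background.

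The 150 bases before the start of Fos are shown with those of Atf3, which shares the hexamer TGACGT with it, and those of Fosb, which lacks it. TGACGT is the core of the cAMP response element to which CREB and ATF proteins bind. RefSeq promoters (GRCm38.p6, 250 bases before to 50 after the start) were matched for 8 of the 10 genes, all but Egr1 and Ier2. For Atf3 the RefSeq start lies inside the longer gene model of the annotation. For Jund the 150 bases before the RefSeq start end at 70697738, while the gene model begins at 70698949. The Jund window therefore does not adjoin the gene that was counted. For Junb, on the minus strand, the 150 bases end at 84978749 and the gene model begins at 84978718. Capitals mark TGACGT or its reverse complement, TATAAA, the TATA box, in Fos and GCGNGGGCG, an EGR1 motif, in Fosb. The stretches are chr12:85473740-85473889 on the plus strand for Fos, chr1:191183334-191183483 on the minus strand for Atf3 and chr7:19310046-19310195 on the minus strand for Fosb.
Fos: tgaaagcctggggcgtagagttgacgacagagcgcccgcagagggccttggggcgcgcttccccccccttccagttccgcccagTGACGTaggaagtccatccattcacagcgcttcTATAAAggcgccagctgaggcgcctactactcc
Atf3: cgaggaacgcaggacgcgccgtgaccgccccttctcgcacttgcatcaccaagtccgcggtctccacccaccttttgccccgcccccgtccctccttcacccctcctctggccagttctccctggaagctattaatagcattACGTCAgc
Fosb: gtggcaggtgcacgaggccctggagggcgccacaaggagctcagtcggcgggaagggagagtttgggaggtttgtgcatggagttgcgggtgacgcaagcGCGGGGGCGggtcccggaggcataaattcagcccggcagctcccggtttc
TGACGT was found on either strand at position −66 in Fos, −8 in Atf3, and −191, −143 and −141 in Dusp1, where the last 2 form 1 palindrome. It was thus in 3 of the 8 promoters, against 7.51% of 32851 promoters of the same length. The windows of Jun, Junb, Jund and Zfp36 lacked TGACGT as that of Fosb did, and all of these except Fosb were called higher. GCGNGGGCG, either strand, was in 2 of 8 (Fosb and Zfp36) against 5.55%, and the CArG box bound by SRF in 1 of 8 (Zfp36) against 1.63%. The AP-1 motif TGANTCA was in 0 of 8 against 7.81%. Longer forms of this motif, and bases outside the windows, were not searched for any motif named here. TATAAA, on the gene's strand, was in 2 of 8 (Fos and Junb) against 8.32%. These matches are descriptions of the windows and are not binding data.

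Fosb, a Fos paralogue best known from sustained stimulation (ENSMUSG00000003545, chromosome 7, 19302696 to 19310051, minus strand), did not follow Fos. Its counts were 169, 228, 284 and 234 in Hypoxia 1 to 4, while Hypoxia+Nitrate 1 to 4 had 206, 206, 24 and 320. The scaled values were 11.3, 16.6, 14.97 and 14.1 CPM in Hypoxia and 14.6, 11.7, 1.31 and 15.6 CPM in Hypoxia+Nitrate. The groups overlapped, and Hypoxia+Nitrate 3 lay below all others. The log2 fold change was −0.40 (SE 0.609, edgeR adjusted p = 0.635), and without Hypoxia+Nitrate 3 it was 0.13. Hypoxia counts of Fosb were 2.16 times background over 6243 bp of exonic sequence. Hypoxia+Nitrate 3 was at 0.325 times, while the receptor genes themselves had a median of 0.285 times over the Hypoxia+Nitrate group.

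The Jun family rose as a whole. Jun (ENSMUSG00000052684, chromosome 4, 95049034 to 95052222, minus strand), the main AP-1 partner of Fos, held 8.08, 9.17, 5.16 and 7.53 CPM in Hypoxia 1 to 4. It held 148, 17.8, 34.2 and 68.1 CPM in Hypoxia+Nitrate 1 to 4. The groups were apart, with a log2 fold change of 3.16 (SE 0.661, edgeR adjusted p = 0.00992). Junos, an antisense gene that overlaps Jun, had 65 to 135 counts in Hypoxia and 63 to 280 in Hypoxia+Nitrate. It was highest in Hypoxia+Nitrate 3, whereas Jun was highest in Hypoxia+Nitrate 1.

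Junb (ENSMUSG00000052837, chromosome 8, 84974484 to 84978718, minus strand), which can restrain Jun activity, held 9.41, 17.8, 3.43 and 10.3 CPM in Hypoxia 1 to 4. In Hypoxia+Nitrate 1 to 4 it held 248, 42.2, 58.6 and 224 CPM. The lowest Hypoxia+Nitrate value was above the highest Hypoxia value, and Junb had the smallest p of the 10 genes (log2 fold change 3.81, SE 0.783, edgeR adjusted p = 0.00960). Over the Hypoxia group Junb stood at 4.30 times background, from 1.48 times in Hypoxia 3 to 9.59 times in Hypoxia 2.

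Jund (ENSMUSG00000071076, chromosome 8, 70698949 to 70700616, plus strand), the Jun member that resting cells already express, had the highest CPM per kb of the 10 in every library and the largest fold change with TMM scaling. Per gene, Egr1 had more CPM in Hypoxia 1, 3 and 4, and Fosb and Jun in Hypoxia 3, and after background subtraction 4 members had larger fold changes than Jund. It held 13.6, 54.8, 4.74 and 17.4 CPM in Hypoxia 1 to 4. The libraries Hypoxia+Nitrate 1 to 4 gave 544, 109, 125 and 879 CPM. Hypoxia 2 was the highest of its group, and Hypoxia+Nitrate 1 and 4 stood well above Hypoxia+Nitrate 2 and 3. The log2 fold change was 4.19 (SE 1.02, edgeR adjusted p = 0.0160). Jund stood at 24.9 times background in Hypoxia, with 5.49 times as its lowest library, so that it was above background in all 8 libraries. Only 47.4% of its exonic length is free of the antisense gene Gm11175, which itself had 7 counts in Hypoxia 2 and 0 elsewhere, so the level of Jund per length is uncertain.

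Egr1, a zinc-finger transcription factor of the early growth response (ENSMUSG00000038418, chromosome 18, 34859823 to 34864984, plus strand), rose least among the 9. It held 19.96, 27.5, 7.80 and 18.7 CPM in Hypoxia 1 to 4. In Hypoxia+Nitrate 1 to 4 it held 140, 45.4, 46.0 and 50.6 CPM. The groups were apart, 3 Hypoxia+Nitrate libraries lay close together and Hypoxia+Nitrate 1 was far above them. The log2 fold change was 1.93 (SE 0.569, edgeR adjusted p = 0.0324), and 1.36 without Hypoxia+Nitrate 1 (adjusted p = 0.0694).

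Ier2, a small nuclear early response protein (ENSMUSG00000053560, chromosome 8, 84661331 to 84662852, minus strand), held 6.07, 5.67, 1.11 and 3.97 CPM in Hypoxia 1 to 4. It held 76.7, 19.5, 17.4 and 68.0 CPM in Hypoxia+Nitrate 1 to 4, all above Hypoxia. The log2 fold change was 3.43 (SE 0.708, edgeR adjusted p = 0.00966). In Hypoxia 3 the 21 counts of Ier2 were 0.666 times background.

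Atf3, a stress-induced repressor of the ATF family (ENSMUSG00000026628, chromosome 1, 191170296 to 191218039, minus strand), overlapped between the groups. It held 4.21, 7.49, 3.37 and 5.60 CPM in Hypoxia and 43.2, 11.4, 4.35 and 34.1 CPM in Hypoxia+Nitrate. Hypoxia+Nitrate 3 was inside the Hypoxia range. The log2 fold change of 2.17 (SE 0.666, edgeR adjusted p = 0.0374) had the largest p of the 9 calls. It did not pass when any of the 4 Hypoxia libraries, Hypoxia+Nitrate 1 or Hypoxia+Nitrate 4 was left out (adjusted p = 0.0636 to 0.117).

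By CPM the genes that end the response rose as well. Their Hypoxia levels were 2.92 (Zfp36) and 2.59 (Dusp1) times background, and 1.11 and 1.26 times in Hypoxia 3. Zfp36 (ENSMUSG00000044786, chromosome 7, 28376784 to 28380253, minus strand) held 10.6, 17.2, 4.06 and 11.5 CPM in Hypoxia 1 to 4. In Hypoxia+Nitrate 1 to 4 it held 214, 30.7, 53.3 and 151 CPM. The groups were apart, with a log2 fold change of 3.37 (SE 0.735, edgeR adjusted p = 0.0112). Dusp1 (ENSMUSG00000024190, chromosome 17, 26505590 to 26562128, minus strand) held 11.6, 12.6, 4.53 and 8.91 CPM in Hypoxia 1 to 4. Its Hypoxia+Nitrate values were 73.4, 13.02, 24.1 and 42.3 CPM. Hypoxia+Nitrate 2 barely cleared Hypoxia 2, and the log2 fold change was 2.02 (SE 0.584, edgeR adjusted p = 0.0301). Like Egr1, Dusp1 did not pass in edgeR when any 1 Hypoxia library or Hypoxia+Nitrate 1 was left out (adjusted p = 0.0507 to 0.0956 for both genes), nor did Dusp1 without Hypoxia+Nitrate 4 (adjusted p = 0.0512).

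ZFP36 is known to bind AU-rich stretches with the core TATTTAT in 3′ untranslated regions, those of Fos and of its own message included. The stretches of 28 bases around this core are shown because they link this member to others of the set, with the core in capitals.
Fos: caattTATTTATtaagatggattctcag
Jun: gtgcaTATTTATaatagcgttcgttatc
Jund: cgcccTATTTATgtttctactcgggaac
Zfp36: cccttTATTTATgacgacttTATTTATt
Dusp1: gtcctTATTTATttaacacccccctcac
The core occurred in the 3′ untranslated region of 7 of the 10 genes in GENCODE M21 transcripts, with 3 copies each in Zfp36 and Dusp1, 2 in Fos and 1 each in Fosb, Jun, Jund and Atf3. Junb, Egr1 and Ier2 had 0 copies. It occurred in 27.5% of 20985 coding genes, and in 27.9% of the 9945 genes whose untranslated region was within the members' range of lengths.

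**Figure D2:**
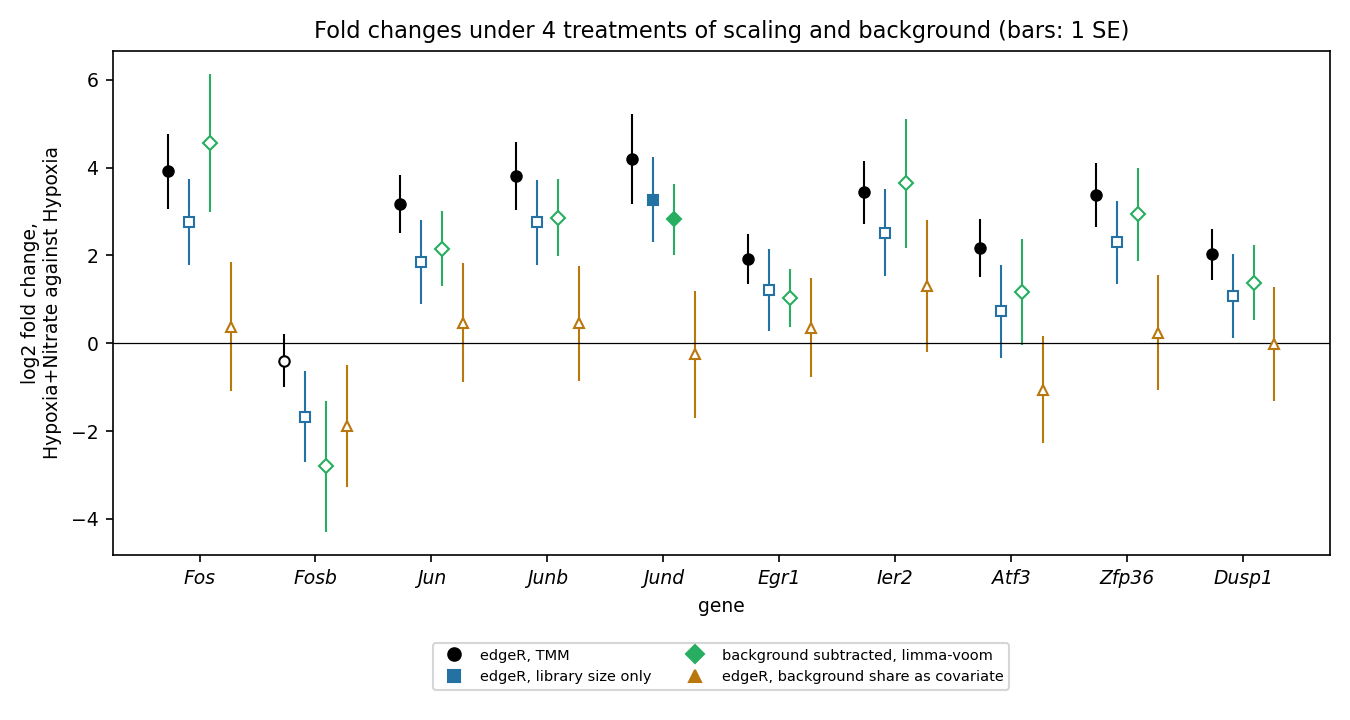
Log2 fold change of each gene in 4 fits, with bars of 1 SE and filled markers for an adjusted p under 0.05. After background subtraction Fos (4.56), Ier2 (3.64), Zfp36 (2.94), Junb (2.86) and Jund (2.83) have the 5 largest values, of which Jund alone passes the threshold, and with the background share as a covariate no gene passes.

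The scaling moved both the members and the median gene. Library size alone moved the members more than the median gene, RLE less, and upper quartile by about as much. The median log2 fold change over all genes was −0.58 for TMM, −0.87 for RLE scaling, −0.94 for upper-quartile scaling and −1.07 for library size alone. The median of the 10 genes went from 3.27 (TMM) to 3.07 (RLE), 2.87 (upper quartile) and 2.07 (library size). Relative to the median of all genes, the median of the 10 genes was higher by 3.85 (TMM), 3.94 (RLE), 3.81 (upper quartile) and 3.14 (library size). All 4 scalings gave Fosb a negative and the other 9 genes a positive fold change, but the RLE and upper-quartile scalings each left 6 of the 10 called. Egr1, Atf3 and Dusp1 did not pass there, with edgeR adjusted p = 0.0567, 0.0556 and 0.0527 for RLE and 0.0615, 0.0663 and 0.0565 for upper quartile. With library size alone 0.686% of genes were called higher, and Jund was the member among them. After background subtraction (limma-voom) 4.24% of 14995 genes were called higher, and again Jund was the member that passed, with a log2 fold change of 2.83 (SE 0.808, adjusted p = 0.0462). There Fos had 4.56 (SE 1.57, adjusted p = 0.0832), Junb 2.86 (SE 0.868, adjusted p = 0.0568) and Egr1 1.03 (SE 0.668, adjusted p = 0.299). Fosb was at −2.80 (SE 1.49, adjusted p = 0.218). With the background share of each library as a covariate, 0 of 35431 genes passed in edgeR. At an unadjusted p under 0.05 this was 2648 genes, 0 of them members.

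A measure that leaves out ribosomal DNA, mitochondrial genes and background sorted the 10 genes into 3 patterns. Each gene's counts above background were divided by the nuclear protein-coding counts above background of the same library and are given in ppm. On this scale Fos, Jun, Junb, Jund, Ier2 and Zfp36 were higher in every Hypoxia+Nitrate library than in any Hypoxia library, as were 7.44% of 21704 coding genes. Fos was at 37.3, 75.6, 0.187 and 3.83 ppm in Hypoxia 1 to 4. It reached 313, 96.6, 115 and 97.5 ppm in Hypoxia+Nitrate 1 to 4. Junb was at 81.1 ± 50.2 against 274 ± 82.2 ppm (SD, n = 4 each) and Jund at 208 ± 163 against 750 ± 317 ppm. For Jun and Ier2 the gap was narrow, with the highest Hypoxia value at 71.1 and 66.9 ppm and the lowest Hypoxia+Nitrate value at 71.7 and 67.9 ppm.

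Egr1, Dusp1 and Atf3 overlapped on that scale. Egr1 was at 146 ± 84.6 ppm in Hypoxia and 162 ± 65.7 ppm in Hypoxia+Nitrate (SD, n = 4 each), and Hypoxia 1, at 230 ppm, was its highest library. Dusp1 was at 65.1 ± 45.9 against 76.4 ± 29.5 ppm, with its highest value, 121 ppm, also in Hypoxia 1. Atf3 was at 28.5 ± 13.6 against 41.7 ± 21.9 ppm.

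Fosb was lower in Hypoxia+Nitrate on that scale. Hypoxia 1 to 4 had 59.0, 89.1, 97.2 and 71.3 ppm, while Hypoxia+Nitrate 1 to 4 had 20.3, 33.0, −11.2 and 18.8 ppm. Every Hypoxia value lay above every Hypoxia+Nitrate value, as was so for 14.9% of coding genes. The negative value means fewer counts than the pooled receptor density predicts. The median receptor gene of the Hypoxia+Nitrate group was itself below that density, at 0.285 times, so the negative value is no sign of a deficit. Before background was taken off, Fosb had 64.8 to 81.4 ppm of nuclear coding counts in Hypoxia and 4.34 to 41.2 in Hypoxia+Nitrate. No test was run on this scale, and it rests on the receptor genes as the background. With the pooled density of long non-coding loci in their place, 7 of the 10 genes, Fos and Fosb among them, stood below background in Hypoxia (0.665 to 0.934 times).

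**Figure D3:**
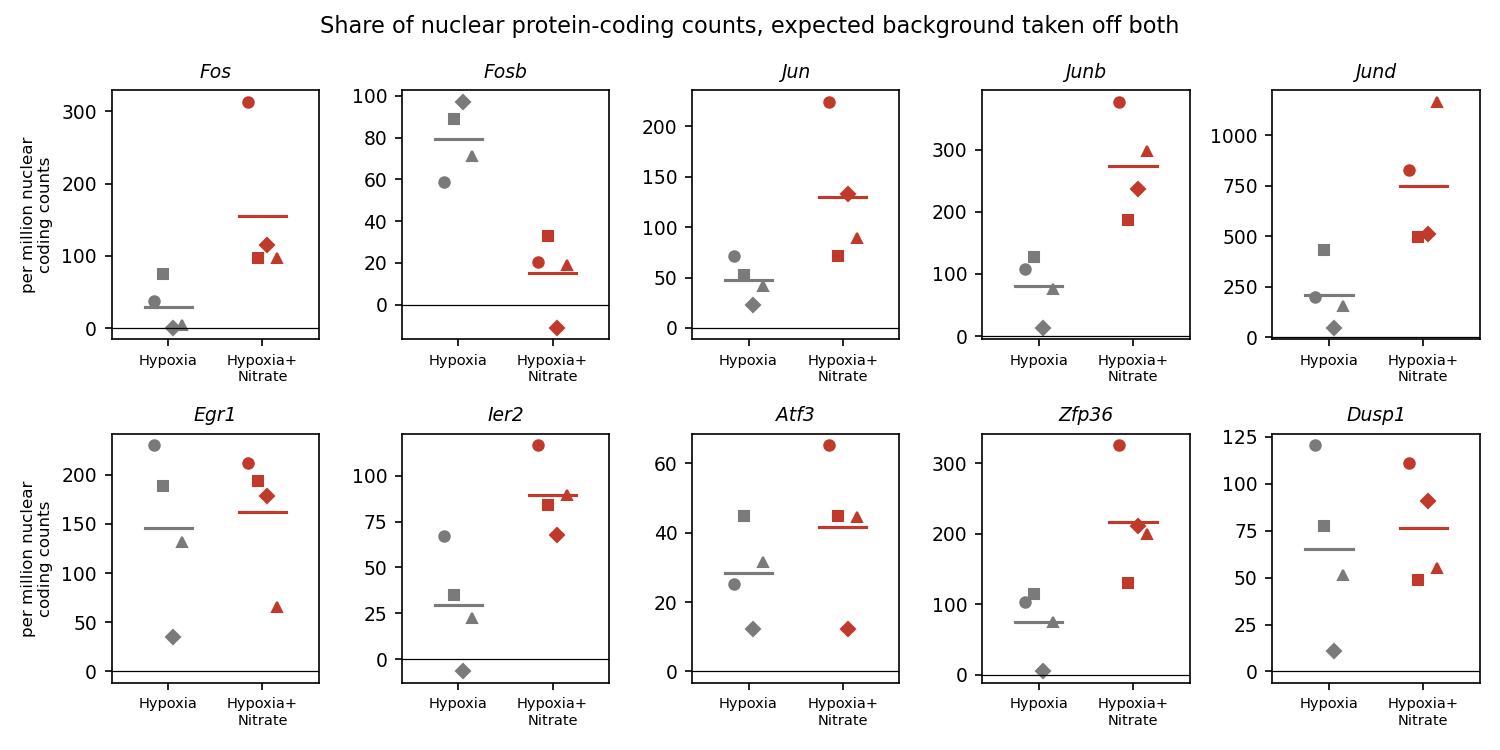
Counts of each gene above background in ppm of nuclear protein-coding counts above background, with a marker for each library (shapes by replicate number, circle, square, diamond and triangle for 1 to 4) and a line at the group mean. Fos, Jun, Junb, Jund, Ier2 and Zfp36 are higher and Fosb lower in all 4 Hypoxia+Nitrate libraries, while Egr1, Atf3 and Dusp1 overlap.

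Ordered by CPM per kb of exonic sequence free of other genes, with background taken off, Jund led in Hypoxia+Nitrate with 523 ± 468. It was followed by Junb (66.9 ± 50.9 CPM per kb), Fos (34.9 ± 36.4), Zfp36 (33.1 ± 25.9), Ier2 (29.4 ± 20.8) and Jun (22.2 ± 19.8). Egr1 (15.3 ± 10.5), Dusp1 (11.1 ± 8.23), Atf3 (10.3 ± 8.78) and Fosb (1.28 ± 1.25) came last. Jund was first of the 10 in every library, and its lead over Junb exceeded the SD of Junb but not its own. Neighbours from Junb to Atf3 differed by less than the SD of either gene. These SDs include swings that the genes of a library share. Compared within libraries, Junb was above Fos in every one, while Fos and Zfp36 changed places between Hypoxia+Nitrate libraries. In Hypoxia the order began with Jund (27.6 ± 28.1), Junb (3.76 ± 2.88) and Egr1 (3.07 ± 1.89 CPM per kb), and the other 7 lay between 1.23 and 2.19. Neighbours among those 7 differed by less than the smallest of their SDs, 0.487.

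The makeup of the Fos and Jun families within a library does not depend on how libraries are scaled. Of the summed CPM per kb of Fos, Fosb, Jun, Junb and Jund above background, Jund made up 66.4% to 81.5% in Hypoxia and 72.9% to 87.3% in Hypoxia+Nitrate. With the full exonic length in place of the part free of Gm11175, these shares were 49.2% to 68.7% and 57.3% to 77.6%, so Jund remained the first of the 5 in every library. Junb took 7.01% to 14.4% in Hypoxia and 8.27% to 13.01% in Hypoxia+Nitrate, and the groups overlapped for Jund, Junb and Jun. Fos took 4.51%, 4.78%, 0.0902% and 0.633% in Hypoxia 1 to 4. Its Hypoxia+Nitrate shares were 9.27%, 5.24%, 5.73% and 2.46%. Fosb took 2.69%, 2.12%, 17.7% and 4.44% in Hypoxia 1 to 4. Its Hypoxia+Nitrate shares were 0.226%, 0.676%, 0% and 0.178%, where a count below background was set to 0. The share of Fosb was lower in every Hypoxia+Nitrate library than in any Hypoxia library. Before background was taken off it was 3.01% to 18.7% against 0.09995% to 1.07%. These values are no separate check, because background was a larger part of the counts in Hypoxia. The level of Fosb itself above background was 1.23 ± 0.487 CPM per kb in Hypoxia and 1.28 ± 1.25 in Hypoxia+Nitrate (SD, n = 4 each). The mean levels of the other 4 genes were higher in Hypoxia+Nitrate. In Hypoxia Fosb stood at 2.16 times background, inside the receptor genes' 5th to 95th percentile.

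**Figure D4:**
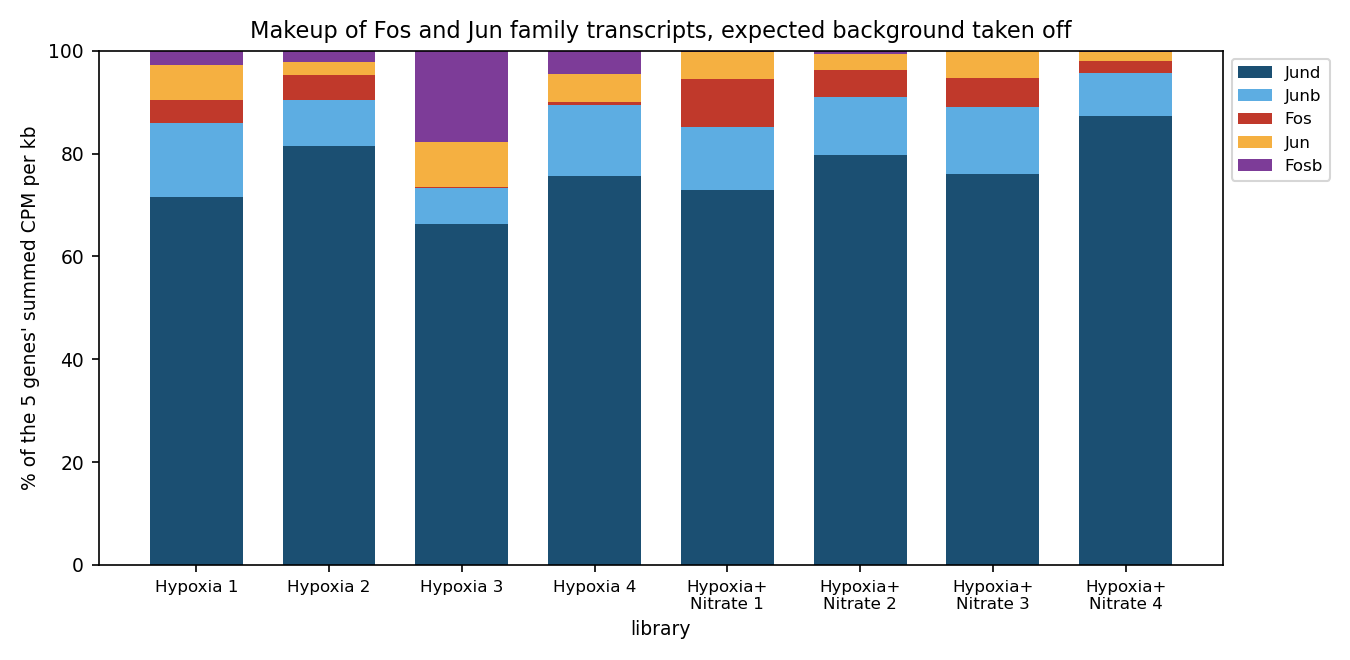
Stacked bars give the percent of summed CPM per kb above background taken by Jund, Junb, Fos, Jun and Fosb in each of the 8 libraries. Jund makes up 66.4% to 87.3% of every bar, and Fosb is widest in Hypoxia 3 (17.7%) and under 1% in each Hypoxia+Nitrate library.

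The genes also varied together inside the groups. After removing group means, the correlation of log2 CPM between Junb and Zfp36 was 0.99 over the 8 libraries, and the mean correlation of a member with the other 9 ran from 0.725 for Egr1 to 0.851 for Junb. For Fosb that mean was 0.436. The libraries share scaling factors and depth, which enter all pairs alike, and inside each group they also differ in background. Background made up 2.86%, 23.2%, 19.6% and 2.74% of nuclear coding counts in Hypoxia+Nitrate 1 to 4. In Hypoxia 1 to 4 it made up 63.7%, 39.1%, 54.4% and 46.7%. Its part in these correlations was not tested, and pairs of other genes were not set beside them. Averaged over the 10 genes, log2 CPM stood 1.26 and 0.74 above the group mean in Hypoxia+Nitrate 1 and 4, and was lowest among Hypoxia libraries in Hypoxia 3, at −0.96 from its group mean. Among 8075 other coding genes whose log2 CPM averaged 3 or more, the profiles close to the mean of the 10 genes over all 8 libraries included those of Zadh2, Rcc2, Pnrc1 and Ppib (Pearson r from 0.992 to 0.993). With group means removed they included Dcaf7 and Tesk1 (r = 0.985 and 0.984).

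Genes upstream of the response were described from a list of Egfr, Ras proteins, MAP kinases and SRF partners. Of 28 such genes 14 rose, 0 fell and 14 did not pass, with a median log2 fold change of 1.64. Calls of a rise covered 11.7% of all genes and 18.5% of nuclear protein-coding genes. At an unadjusted p under 0.05 edgeR had 18 higher and 0 lower, and DESeq2 called 15 higher and 0 lower. Hras, a small GTPase, rose by 2.62 (SE 0.546), Mapk3, which encodes ERK1, by 5.05 (SE 1.09) and Mapkapk2, a kinase downstream of p38, by 2.78 (SE 0.631) on the log2 scale (edgeR adjusted p = 0.00990 to 0.0128). Hypoxia counts of Hras were 0.939 times background. After background subtraction 1 of 27 passed, with a median of 1.57, and with library size alone 1 of 28 passed.

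Of 16 other leucine zipper partners 6 rose and 0 fell, with a median of 0.83, beside the 18.5% of nuclear protein-coding genes that were called higher. At an unadjusted p under 0.05 edgeR had 7 and 0, and DESeq2 called 6 and 0. They were Atf4, the main factor of the integrated stress response, at a log2 fold change of 3.94 (SE 0.870), Maff at 2.40 (SE 0.538), Atf5 at 2.19 (SE 0.598), Atf1 at 2.55 (SE 0.715), Fosl2, a Fos relative, at 1.88 (SE 0.546) and Mafk at 2.13 (SE 0.664). With library size alone the median of this list was −0.05 and 0 passed, and after background subtraction 0 of 13 passed. Of 18 feedback phosphatases and RNA decay genes 4 rose and 0 fell, with a median of 1.03, a share near the 18.5% of nuclear protein-coding genes called higher. At an unadjusted p under 0.05 edgeR had 8 higher and 0 lower, and DESeq2 called 6 higher and 1 lower. Khsrp, another decay factor of AU-rich messages, rose by 2.18 (SE 0.454), the Zfp36 paralogues Zfp36l2 and Zfp36l1 by 2.96 (SE 0.740) and 1.97 (SE 0.503), and Dusp5, a nuclear ERK phosphatase, by 3.11 (SE 0.827). None of this list passed with library size alone (0 of 18) or after background subtraction (0 of 14).

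Of 50 other immediate early genes, 24 rose, 2 fell and 24 did not pass, with a median log2 fold change of 1.82. Over all genes tested 11.7% were called higher and 12.7% lower. At an unadjusted p under 0.05 edgeR had 30 higher and 6 lower, and DESeq2 called 26 higher and 6 lower. After background subtraction 0 of 47 were called higher and 2 lower. The number called lower was 0 when any 1 Hypoxia library, Hypoxia+Nitrate 3 or Hypoxia+Nitrate 4 was left out. Gadd45b, a stress response gene, rose by 2.77 (SE 0.467), Id2, an inhibitor of helix-loop-helix factors, by 2.30 (SE 0.429), Cebpb, a leucine zipper factor, by 3.25 (SE 0.641) and Ppp1r15a, which restores translation after stress, by 1.84 (SE 0.372; edgeR adjusted p = 0.00917 to 0.00934 for these 4). Egr4 and Npas4, early genes best known from neurons, fell by 3.06 (SE 0.998) and 3.88 (SE 1.29) on the log2 scale (edgeR adjusted p = 0.0463 and 0.0496). Both had been low in Hypoxia, at 2.67 and 1.599 times background. These 2 were chosen after their values were seen.

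Markers of enterocytes and smooth muscle were nearly all higher in Hypoxia+Nitrate, while most markers of each other list did not pass. All 12 enterocyte markers rose, with a summed level of 59.3 to 841 CPM in Hypoxia and 1321 to 45283 CPM in Hypoxia+Nitrate. In Hypoxia 3 and 4 they were at 2.08 and 1.998 times background, so the labelled tissue is only weakly seen there. Of 8 smooth muscle markers 7 rose (89.3 to 463 against 1407 to 3046 CPM), and of 11 leukocyte markers 4 rose and 0 fell (73.9 to 91.4 against 131 to 749 CPM, with 1 marker at 0 in Hypoxia+Nitrate 1). Of 7 fibroblast markers 1 rose (88.5 to 117 against 129 to 214 CPM), and of 6 endothelial markers 2 fell and 0 rose (53.7 to 63.8 against 21.0 to 91.3 CPM). For comparison, 11.7% of all genes and 18.5% of nuclear protein-coding genes were called higher, and 12.7% of all genes lower. The fibroblast calls, and those of exocrine pancreas below, were near these shares. Islet markers, listed because the extraction protocol speaks of islets, had 0 of 8 called in edgeR, with 1 higher and 1 lower at an unadjusted p under 0.05 (28.6 to 31.3 against 31.7 to 106 CPM, with up to 2 at 0 in Hypoxia+Nitrate libraries), and 1 of 7 exocrine pancreas markers fell (15.4 to 18.1 against 8.95 to 16.5 CPM, with up to 4 at 0). Their part in the levels of the 10 genes was not tested. In bulk tissue, fewer cells of a type and less RNA per cell cannot be told apart.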

How the data were processed

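RNA had been extracted with TRIzol for a stranded KAPA kit, per the labels' protocols. The submitters' processing notes name HISAT, build GRCm38, DESeq 1.8.3 and featureCounts 1.5.0-p3, and no strand setting or annotation was found in the labels. The deposited values are counts, whole numbers of reads per gene, not normalized by the authors, and all 8 per-sample files equalled the joint table. Of 55421 gene IDs 55240 were found in GENCODE M21.

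Counts were tested in R 4.3.3 with edgeR 4.0.16 (filterByExpr with minimum count 10 and total 15, TMM scaling, quasi-likelihood test, Benjamini-Hochberg adjustment over all genes, threshold 0.05), and SEs were derived from the F statistic. Scripts were tested on simulated data. Alternatives used DESeq2 1.42.0 and limma 3.58.1, other scalings and filters, a replicate block, left-out libraries and the background estimate. The members, lists and tests were chosen with earlier results of these data known. Named genes were all members, the 4 smallest p-values in every list, and the nearest profiles (5 over all libraries, 3 within groups). Some genes that this rule selects are not reported here. Fosl2 and Mafk were added to name all 6 calls of their list. The share of nuclear coding counts above background and the median density of long non-coding loci were added after seeing the data.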

Additional observations from a re-analysis of the deposited data

Results flagged for a closer look

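Of 20 sets of 4 values examined (10 genes in each group), 1 held a library far from the others. Egr1 in Hypoxia+Nitrate 1 was at 140 CPM, against 45.4 to 50.6 CPM in the other 3 libraries of its group, a gap of 0.945 of the whole range, above Dixon's 95% critical value. Chance flags about 1 in 20 such sets.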

How the results depend on the processing

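The number of the 10 genes called higher was 9 in the reported fit. It was 1 with library size only, 0 with the background share as covariate, 1 after background subtraction and 6 with RLE or upper-quartile factors. Without Hypoxia 1 and 2 together it was 2, and without Hypoxia+Nitrate 1 and 4 together it was 6. Leaving out 1 library at a time gave 1 to 9, and the number called lower was 0 in all 21 alternatives. With the covariate the log2 fold changes of Jund, Atf3 and Dusp1 turned to −0.25, −1.05 and −0.019, and without Hypoxia+Nitrate replicate 3 that of Fosb turned to 0.13 (−0.62 to 0.13 with 1 library left out). The replicate block left 6 of the 10 called, Egr1, Atf3 and Dusp1 being lost. Same-numbered libraries deviated together only weakly (r = 0.05, −0.18, 0.18 and −0.05), and 2 of 4 Hypoxia libraries correlated best with their own number. These values show no clear pairing by number, and they cannot exclude one because the libraries differ in background and content. Calls over all genes numbered 8653 (4163 higher, 4490 lower). They were 4791 with the replicate block, 1800 with library size only (243 higher, 1557 lower), 9249 with RLE (3237, 6012), 8269 with upper-quartile factors (2844, 5425), 22228 with DESeq2, 15818 with limma-voom, 16708 without filter and 2020 after subtraction. They were 4227 without Hypoxia 1 and 2 together and 1932 to 22454 with 1 library left out. Over the 21 alternatives the higher calls ran from 0 to 30 for other immediate early genes, 0 to 7 for leucine zipper partners, 0 to 8 for feedback and decay genes and 0 to 19 for upstream genes, and the lower calls from 0 to 6, 0 to 1, 0 to 1 and 0 to 1. The causes were not tested. The background level also depended on the loci used: with the pooled density of long non-coding loci in place of receptor genes the 10 genes in Hypoxia stood at 0.665 (Fos) to 7.95 (Jund) times background, 7 of them below it, and with their median density at 1.47 to 17.5 times.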
